A study of Mus musculus with 18 samples.

Results

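The genes described here encode the nuclear subunits of the 5 oxidative phosphorylation complexes and a set of complex I assembly factors. They were taken by symbol, as all probesets with 1 gene symbol that begins with Nduf, Uqcr, Atp5 or Cox4 to Cox8, or that is *Sdha*, *Sdhb*, *Sdhc* or *Sdhd*. This gave 113 of the 34760 probesets and 89 of the 19937 genes with a symbol of their own, and each gene was represented by its probeset with the highest mean signal. Of the 89 genes, 41 belong to complex I, 4 to complex II, 8 to complex III, 19 to complex IV and 17 to complex V, with *Ndufa4* and its relative *Ndufa4l2* counted in complex IV, where the NDUFA4 protein is found. By subunit role, complex I gave 6 core subunits, 28 accessory subunits and 7 assembly factors.

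RNA came from the hypothalamus of male mice of 2 inbred Schlager strains, the hypertensive BPH/2J and the normotensive BPN/3J, with 1 mouse and 1 array per sample. At ‘peak’ BP, in the active period, 6 mice of each strain were sampled at 26 weeks of age, and at ‘trough’ BP, in the inactive period, 3 of each strain at 18 weeks by the sample labels or 19 weeks by the series text. No mouse carried a transgene or a drug treatment by the labels, and the hour of the day and the age changed together between the times and cannot be told apart. The study's own question was how the strains differ between the times, and its measure *d* takes BPH/2J less BPN/3J on the log2 scale at ‘peak’ BP and subtracts the like value at ‘trough’ BP, with *aFD* as the same quantity as a signed fold. For the 3 BPN/3J ‘trough’ mice a strain label reads BPH/2J while the title reads BPN, and the title was followed. The labels give whole hypothalamus, while the paper describes a dissection of the paraventricular and dorsomedial nuclei. The hypothalamic neuropeptide genes *Pmch* and *Hcrt* had mean log2 signals of 12.14 and 9.32 over the 18 arrays. Other genes that mark hypothalamic nuclei read lower, such as *Crh* at 5.68 to 7.01 and *Nkx2-1* at 6.14 to 6.79 in single mice. Which part of the hypothalamus was taken was not tested.

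Oxidative phosphorylation makes most of a neuron's ATP. Complexes I and II pass electrons from NADH and succinate to ubiquinone, complex III passes them to cytochrome c, complex IV passes them to oxygen, and complex V, the ATP synthase, uses the proton gradient that complexes I, III and IV build. Most subunits are encoded in the nucleus and made in the cytosol, and a small set that includes some core subunits of complexes I, III and IV is encoded in mitochondrial DNA. Many promoters of the nuclear subunits are known to bind the nuclear respiratory factors, NRF1 and the ETS factor GABP (also called NRF2), and some hold sites for CREB.

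Promoter sequence was taken from RefSeq (GRCm38.p6) for 73 of the 89 genes, as the 250 bases before the annotated start. The letters GCATGCGC, the core of the NRF1 site, were present on either strand in 12.3% of these 73 promoters, against 2.56% of the 27025 promoters in the table. The ETS letters CCGGAAG were present in 17.8%, against 7.83%, and the cyclic AMP response element TGACGTCA in 5.48%, against 1.77%. 3 promoters are shown because their genes rose at ‘peak’ BP in both strains and hold the NRF1 letters, with NRF1, ETS and cyclic AMP response element letters in capitals on whichever strand they lie. They are those of *Cox6a1* (chr5:115348959-115349208, minus strand), *Ndufa11* (chr17:56717512-56717761, plus strand) and *Sdhb* (chr4:140961021-140961270, plus strand), written 5′ to 3′ in the direction of the gene.
Cox6a1: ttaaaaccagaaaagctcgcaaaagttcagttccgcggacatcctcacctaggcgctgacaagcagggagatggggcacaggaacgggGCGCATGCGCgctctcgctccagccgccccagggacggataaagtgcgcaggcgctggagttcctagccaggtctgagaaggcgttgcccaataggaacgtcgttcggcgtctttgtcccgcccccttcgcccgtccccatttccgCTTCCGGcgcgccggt
Ndufa11: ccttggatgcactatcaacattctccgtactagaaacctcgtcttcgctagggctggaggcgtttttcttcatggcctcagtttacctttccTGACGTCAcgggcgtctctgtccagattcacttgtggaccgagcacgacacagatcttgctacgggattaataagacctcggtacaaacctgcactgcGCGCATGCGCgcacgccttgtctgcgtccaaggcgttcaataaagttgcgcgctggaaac
Sdhb: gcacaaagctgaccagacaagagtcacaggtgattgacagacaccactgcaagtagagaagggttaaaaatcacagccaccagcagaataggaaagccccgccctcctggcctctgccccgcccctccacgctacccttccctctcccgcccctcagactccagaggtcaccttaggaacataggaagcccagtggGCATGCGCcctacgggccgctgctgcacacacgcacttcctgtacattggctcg
In *Cox6a1* and *Ndufa11* the NRF1 letters occurred on both strands at overlapping positions, which gives the run of 10 capitals. In *Cox6a1* the ETS letters began 16 bases before the start, and in *Ndufa11* the cyclic AMP response element began 158 bases before it. The 25 genes of the promoter table that rose in both strains held the NRF1 letters in 12% and the ETS letters in 16% of promoters, and the 35 that rose in neither strain held them in 11.4% and 17.1%. The cyclic AMP response element stood in 3 of the 25 promoters (12%), those of *Ndufa11*, *Ndufb2* and *Uqcrfs1*, and in 1 of the 35 (2.86%), that of *Ndufa10*. The E-box CACGTG, to which the clock factors CLOCK and BMAL1 bind, was found in 8.22% of the 73 promoters and in 6.86% of all promoters. The YY1 letters AAGATGGCG were found in 1.37% and 0.71%, and the oestrogen-related receptor letters TCAAGGTCA in 1.37% and 0.422%. A match is a description of the sequence and was not tested as a binding site.

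Most of these genes gave a higher signal in the ‘peak’ mice, in each strain. In BPH/2J the median difference (‘peak’ minus ‘trough’) over the 89 genes was 0.28 on the log2 scale, a 1.21-fold higher signal, and in BPN/3J it was 0.33, or 1.25-fold. The difference was above 0 for 86 genes in BPH/2J and for 83 in BPN/3J, and the medians over all 19937 genes were -0.02 and -0.04. In BPH/2J 30 genes rose (33.7%) and 0 fell at a limma adjusted p under 0.05, where 4.63% of all genes rose and 5.61% fell. At an unadjusted p under 0.05 the counts were 52 and 0, where 12.3% and 13.7% of all genes passed upwards and downwards. In BPN/3J 40 genes rose (44.9%) and 1 fell, where 13.9% of all genes rose and 14.7% fell. At an unadjusted p under 0.05 the counts were 54 and 1, where 20% and 24% of all genes passed upwards and downwards. Because these genes are bright on the arrays, the background was also taken over the 14196 genes from the 40th percentile of signal upwards, of which 6.21% rose in BPH/2J and 18.8% in BPN/3J. That background was not matched to the signal of the 89 genes, whose median was 10.01, against 7.01 over all genes. In BPN/3J the time difference went up with signal over all genes (Spearman correlation 0.36), so a share at matched signal may differ. In bulk tissue a different share of a cell type and a different amount of RNA per cell cannot be told apart.

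Of the 89 genes, 28 rose in both strains, which is 93.3% of those that rose in BPH/2J and 70% of those that rose in BPN/3J, and 47 rose in neither. Over all genes 4% rose in both strains, and over those from the 40th percentile of signal 5.52%. Every ‘peak’ mouse lay above every ‘trough’ mouse for 42 genes in BPH/2J (9.07% of all genes did so), for 46 in BPN/3J (12.5%) and for 34 in both (5.73%). For 0 of the 89 genes did every ‘peak’ mouse lie below every ‘trough’ mouse, as it did for 11.6% of all genes in BPH/2J and 11.2% in BPN/3J. Both strains have their own ‘peak’ and ‘trough’ mice, so the time differences of the 2 strains share no array. The calls are not separate in this way, because the variance of each probeset was taken from the arrays of both strains together. The hour of the day and the age also changed together in both strains.

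The array means show how evenly the mice took part. For each mouse the deviation of every gene from its mean over the 18 arrays was averaged over the 89 genes. The 6 ‘trough’ mice lay between -0.26 and -0.14 and the 12 ‘peak’ mice between -0.05 and 0.20, so the times did not overlap. The mean was 0.11 ± 0.07 (SD, n = 6) in BPH/2J and 0.09 ± 0.07 (SD, n = 6) in BPN/3J at ‘peak’ BP, and -0.18 ± 0.05 (SD, n = 3) and -0.23 ± 0.03 (SD, n = 3) at ‘trough’ BP. Among the ‘peak’ mice the lowest were BPN/3J mouse 11 at -0.05, BPH/2J mouse 8 at 0.01 and BPH/2J mouse 9 at 0.05. Between 41 and 76 of the 89 genes lay above their own mean in a ‘peak’ mouse and between 6 and 14 in a ‘trough’ mouse.

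**Figure D1:**
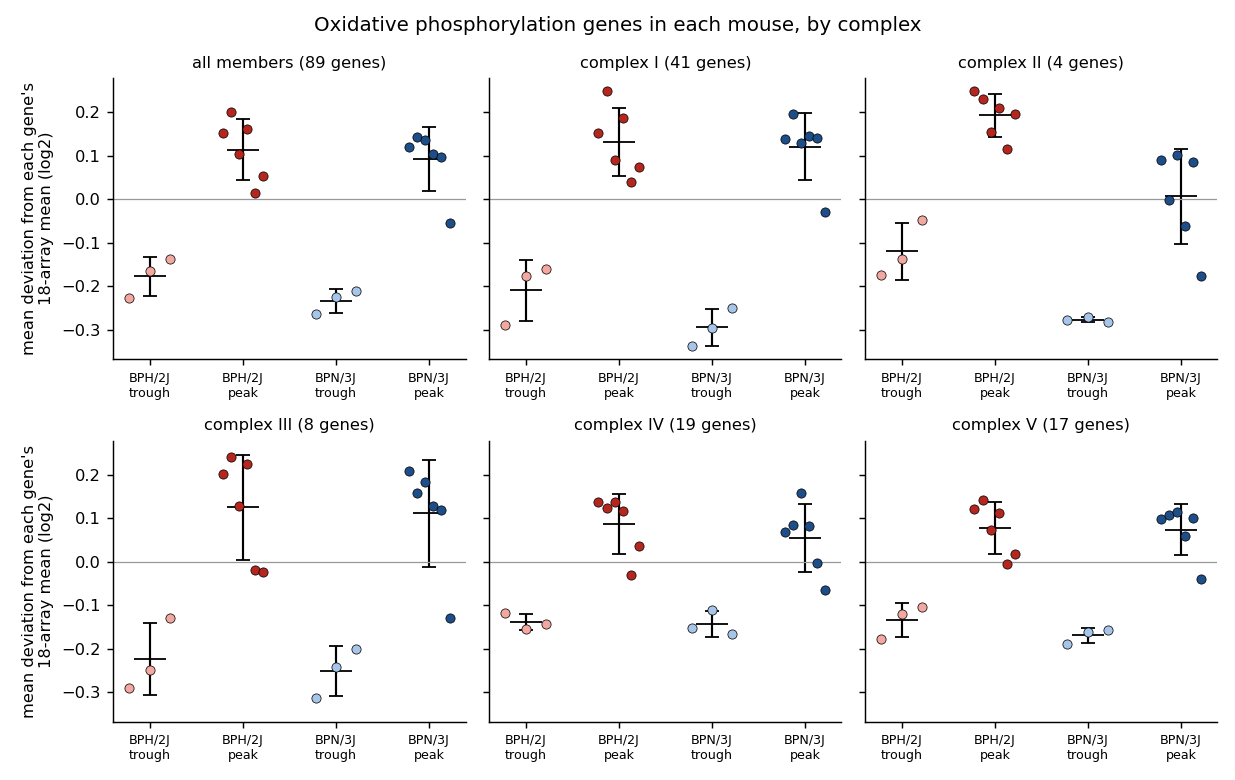
Mean deviation of the oxidative phosphorylation genes from each gene's mean over the 18 arrays (y axis, log2) in each mouse, for all 89 genes and by complex, with 1 point per mouse and bars for the group mean ± SD. Over all 89 genes the ‘trough’ mice lie from -0.26 to -0.14 and the ‘peak’ mice from -0.05 to 0.20, with BPN/3J ‘peak’ mouse 11 the lowest of the latter.

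The counts moved with the arrays used. BPN/3J ‘peak’ mouse 11 correlated with the rest of its group at 0.964 to 0.968 over all probesets, below every other array's closest match of 0.982 or more. As an alternative, the 4 ‘peak’ mice with the highest numbers, BPH/2J mice 8 and 9 and BPN/3J mice 10 and 11, were left out together. For some genes, chosen here after their values were seen, they lay apart from the other ‘peak’ mice in both strains. *Ndufb10* read 7.95 and 8.11 in BPH/2J mice 8 and 9 against 9.06 to 9.31 in the others. In BPN/3J mice 10 and 11 it read 7.93 and 7.73 against 8.88 to 9.04. *Uqcrc1* lay the other way, at 11.68 and 11.58 against 11.03 to 11.18, and at 11.65 and 11.23 against 10.92 to 11.02. The cause was not tested. Without these 4 mice 55 genes rose in BPH/2J, where 12.4% of all genes rose, and 59 rose and 2 fell in BPN/3J, where 21.5% of all genes rose. The medians were then 0.32 and 0.35. Without BPH/2J ‘trough’ mouse 1, 13 genes rose in BPH/2J and 1.17% of all genes did, and without any 1 other mouse between 22 and 36 rose. In BPN/3J the range over single mice was 30 to 48 genes that passed. With each array centred on its own median, 30 genes rose in BPH/2J and 50 in BPN/3J, and 3.98% and 16.9% of all genes rose while 2.81% and 7.86% fell, against 5.61% and 14.7% that fell on the deposited scale.

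Some markers of other cells passed between the times, and the part of these cell types in the values of the oxidative phosphorylation genes was not tested. Over all genes 4.63% rose and 5.61% fell in BPH/2J, and 13.9% rose and 14.7% fell in BPN/3J. Of the 10 mural cell markers, which mark pericytes and vascular smooth muscle, 3 fell in BPH/2J and 3 fell and 1 rose in BPN/3J, with median differences of -0.45 and -0.17. In BPH/2J their mean deviation lay between 0.27 and 0.45 at ‘trough’ BP and between -0.21 and 0.14 at ‘peak’ BP. In BPN/3J it lay between -0.04 and 0.17 at ‘trough’ BP and between -0.27 and 0.33 at ‘peak’ BP, so those groups overlapped. Of 12 neuron markers 1 rose and 0 fell in BPH/2J and 2 rose and 3 fell in BPN/3J, with medians of -0.09 and -0.02. Their mean deviation overlapped between the times in both strains, from -0.03 to 0.08 at ‘trough’ and from -0.04 to 0.09 at ‘peak’ BP in BPH/2J and from -0.02 to 0.03 and -0.18 to 0.01 in BPN/3J. The 7 endothelial markers had medians of -0.25 and -0.02, and in BPH/2J their mean deviation was between 0.18 and 0.26 at ‘trough’ BP and between -0.13 and 0.14 at ‘peak’ BP. In BPN/3J it was between -0.17 and -0.10 at ‘trough’ BP and between -0.23 and 0.21 at ‘peak’ BP, which overlapped. The 11 genes that mark hypothalamic nuclei, *Pmch* and *Hcrt* among them, had medians of 0.43 and -0.24, and 2 of them rose in BPH/2J and 0 in BPN/3J. Of 8 astrocyte markers 0 rose and 1 fell in BPH/2J, and 0 passed in BPN/3J. Of 7 oligodendrocyte markers 0 passed in BPH/2J and 1 rose in BPN/3J. Of 7 microglia markers 1 rose and 1 fell in each strain. Of 10 striated muscle markers and 8 ependymal and choroid plexus markers 0 passed. The mean deviation of the latter list ran from -1.04 to 1.04 over single mice.

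**Figure D2:**
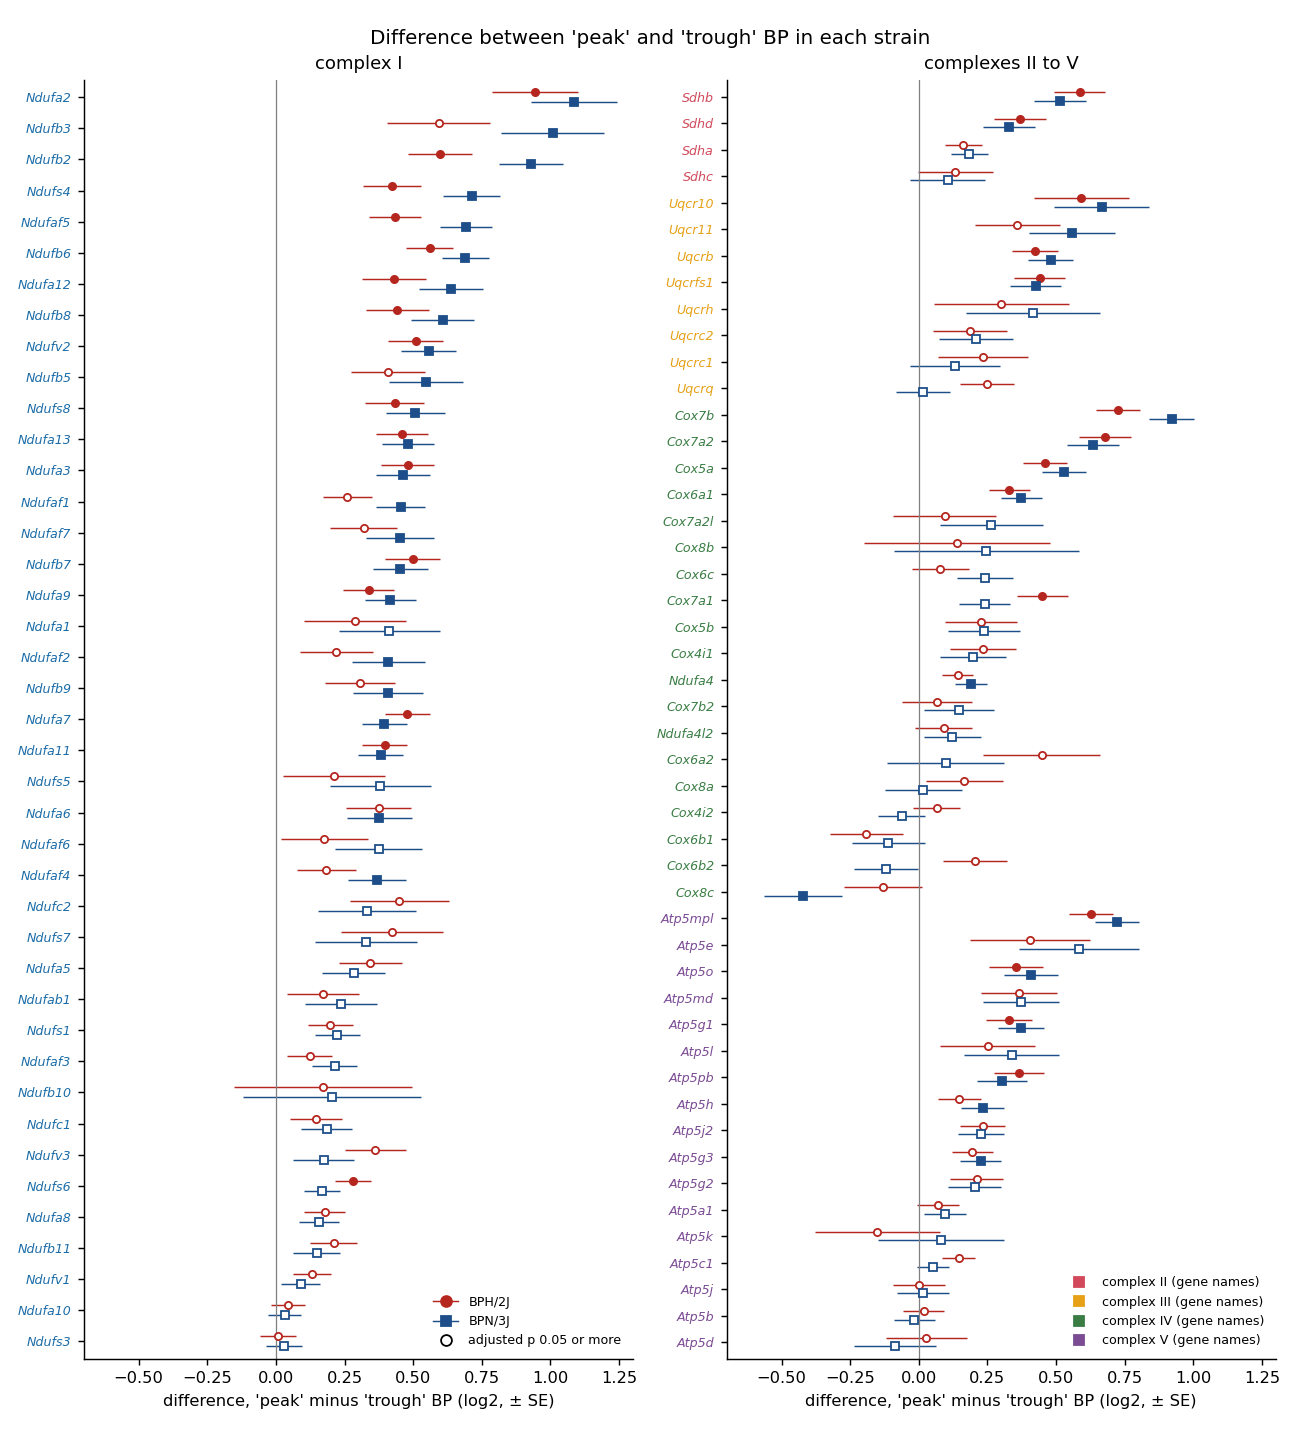
Difference between ‘peak’ and ‘trough’ BP (x axis, log2, ± SE from limma) of the 89 genes in BPH/2J (red circles) and BPN/3J (blue squares), complex I on the left and complexes II to V on the right, with open symbols for an adjusted p of 0.05 or more. All 41 complex I genes lie above 0 in both strains, from 0.01 (*Ndufs3* in BPH/2J, named after its value was seen) to 1.09 (*Ndufa2* in BPN/3J), and the F1 genes *Atp5a1* and *Atp5b* lie between -0.02 and 0.09.

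All 41 genes of complex I, the NADH dehydrogenase of the chain, were above 0 in both strains (33.6% of all genes were), with medians of 0.34 in BPH/2J and 0.40 in BPN/3J. Of the 41, 16 rose in BPH/2J, 23 in BPN/3J and 15 in both, where 4.63%, 13.9% and 4% of all genes did. Among the 28 accessory subunits, which surround the catalytic core, 12 rose in both strains. Every ‘peak’ mouse lay above every ‘trough’ mouse in both strains for 18 of them, as for 5.73% of all genes. Of the 6 core subunits 2 rose in both, and of the 7 assembly factors 1 rose in BPH/2J and 5 in BPN/3J.

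*Ndufa2*, an accessory subunit of the NADH-oxidising arm, had the largest difference of the 89 genes in both strains. In BPH/2J its log2 signal was 8.64, 8.78 and 8.82 in the ‘trough’ mice and from 9.33 to 9.92, median 9.80, in the ‘peak’ mice. In BPN/3J it was 8.36, 8.47 and 8.75 at ‘trough’ BP and from 9.24 to 9.87, median 9.63, at ‘peak’ BP. The times did not overlap in either strain, and the gene rose 1.92-fold in BPH/2J (difference 0.94, SE 0.16, adjusted p = 0.00185) and 2.12-fold in BPN/3J (1.09, SE 0.16, adjusted p = 0.00041). BPH/2J ‘peak’ mice 8 and 9 were the lowest of their group, apart from the other 4.

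*Ndufb2*, a subunit of the membrane arm, read 7.63, 7.64 and 7.84 in BPH/2J ‘trough’ mice and 8.0 to 8.55 (median 8.31) in ‘peak’ mice. In BPN/3J it read 7.26, 7.55 and 7.61 against 8.15 to 8.58 (median 8.43). It rose by 0.60 (SE 0.12, adjusted p = 0.00492) and 0.93 (SE 0.12, adjusted p = 0.000199), with no overlap. *Ndufb6*, another subunit of the membrane arm, gave 10.43, 10.62 and 10.65 against 10.97 to 11.23 (median 11.15) in BPH/2J. In BPN/3J it gave 10.44, 10.48 and 10.51 against 11.04 to 11.40 (median 11.15). Both groups were again apart, and it rose by 0.56 (SE 0.09, adjusted p = 0.00119) and 0.69 (SE 0.09, adjusted p = 0.000191).

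3 further complex I genes had their larger difference in BPN/3J. *Ndufb3*, a small membrane arm subunit, was at 6.80, 7.22 and 7.27 in BPN/3J ‘trough’ mice and at 7.60 to 8.44 (median 8.21) in ‘peak’ mice, a 2.01-fold rise (1.01, SE 0.19, adjusted p = 0.002). In BPH/2J its values were 7.40, 7.54 and 7.62 against 7.66 to 8.39 (median 8.23), a difference of 0.59 (SE 0.19) that did not pass (adjusted p = 0.0597). The lowest BPH/2J ‘peak’ mouse thus stood just above the highest ‘trough’ mouse. *Ndufs4*, which is needed for a stable, active complex I, was at 9.18, 9.45 and 9.52 against 9.85 to 10.31 (median 10.07) in BPN/3J. It rose by 0.71 (SE 0.10, adjusted p = 0.000489) there and by 0.42 (SE 0.10, adjusted p = 0.0189) in BPH/2J, and the times did not overlap in either strain. *Ndufaf5*, an assembly factor that modifies a core subunit, held a narrow range in the BPN/3J ‘peak’ mice, 8.09 to 8.17, against 7.33, 7.44 and 7.52 at ‘trough’ BP. It rose by 0.69 (SE 0.09, adjusted p = 0.000287) in BPN/3J and by 0.43 (SE 0.09, adjusted p = 0.00876) in BPH/2J.

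*Ndufa11*, an accessory subunit of the membrane arm named here for its promoter letters, was at 9.32, 9.34 and 9.45 in BPH/2J ‘trough’ mice and at 9.59 to 9.88 (median 9.77) in ‘peak’ mice. In BPN/3J the values were 9.27, 9.43 and 9.45 against 9.62 to 9.87 (median 9.79). The times were apart in both strains, and it rose by 0.40 (SE 0.08, adjusted p = 0.00663) and 0.38 (SE 0.08, adjusted p = 0.00428).

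The core subunits named for their catalytic place did not pass at an adjusted p under 0.05. *Ndufs1*, which carries iron-sulphur clusters, was higher by 0.20 (SE 0.08, adjusted p = 0.151) in BPH/2J and 0.22 (SE 0.08, adjusted p = 0.0541) in BPN/3J. *Ndufs1* passed in BPN/3J with arrays centred (0.32, adjusted p = 0.0359), without dim probesets (adjusted p = 0.0379), with a trend and robust prior (adjusted p = 0.0339) and with the mean of probesets (adjusted p = 0.044). It passed in both strains with array weights (adjusted p = 0.00686 and 0.0002) and without the 4 mice (adjusted p = 0.0103 and 0.00626). *Ndufv1*, the subunit that oxidises NADH, was higher by 0.13 (SE 0.07, adjusted p = 0.276) and 0.09 (SE 0.07, adjusted p = 0.35). *Ndufc2*, the brightest complex I probeset, had differences of 0.45 and 0.33, and *Ndufaf6*, the dimmest, 0.18 and 0.37, and both had adjusted p-values from 0.0875 to 0.554. *Ndufc2* passed in both strains without the 4 mice (0.64 and 0.53, adjusted p = 0.000266 and 0.000299) and with array weights (0.56 and 0.41), and *Ndufaf6* passed in BPN/3J under the same settings (adjusted p = 0.0448 and 0.00135) and without BPN/3J ‘trough’ mouse 4 (adjusted p = 0.0406).

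In complex II, the succinate dehydrogenase that also serves the tricarboxylic acid cycle, *Sdhb* and *Sdhd* rose in both strains and *Sdha* and *Sdhc* in neither. *Sdhb*, the iron-sulphur subunit whose promoter is printed above, was at 9.46, 9.56 and 9.61 in BPH/2J ‘trough’ mice and at 9.99 to 10.32 (median 10.08) in ‘peak’ mice. In BPN/3J the ‘trough’ mice were at 9.36, 9.37 and 9.37 and the ‘peak’ mice at 9.70 to 10.05 (median 9.87). *Sdhb* rose by 0.59 in BPH/2J (SE 0.09, adjusted p = 0.00152) and by 0.51 in BPN/3J (SE 0.09, adjusted p = 0.00173), with no overlap. *Sdhd*, a membrane anchor, rose by 0.37 (SE 0.09, adjusted p = 0.022) and 0.33 (SE 0.09, adjusted p = 0.0195), but did not pass in BPH/2J without ‘trough’ mouse 1 or 2 (adjusted p = 0.152 and 0.0913) nor in BPN/3J without ‘trough’ mouse 3 or 4 (adjusted p = 0.07 and 0.0711), with quantile normalization (0.23, adjusted p = 0.109) or with the compared groups only (adjusted p = 0.0731). *Sdha*, the flavoprotein that oxidises succinate, differed by 0.16 (SE 0.07, adjusted p = 0.147) and 0.18 (SE 0.07, adjusted p = 0.0516). It passed in BPN/3J with arrays centred (adjusted p = 0.0255), without dim probesets (0.0351) and with a trend and robust prior (0.0194). The same held with the mean of probesets (0.0487), without the 4 mice (0.02) and without BPN/3J ‘peak’ mouse 11 (0.0244). With array weights it passed in both strains (adjusted p = 0.0153 and 0.000687).

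In complex III, the cytochrome bc1 complex, all 8 genes were above 0 in both strains, with medians of 0.33 and 0.42. In BPH/2J 3 rose and in BPN/3J 4, where 4.63% and 13.9% of all genes did. *Uqcrfs1*, the Rieske iron-sulphur protein, was at 8.63, 8.69 and 8.73 against 8.95 to 9.25 (median 9.12) in BPH/2J and at 8.52, 8.57 and 8.72 against 8.80 to 9.21 (median 9.05) in BPN/3J. The times did not overlap, and it rose by 0.44 (SE 0.09, adjusted p = 0.00756) and 0.42 (SE 0.09, adjusted p = 0.00486), though without BPH/2J ‘trough’ mouse 1 the first had an adjusted p of 0.054. *Uqcr10*, a small accessory subunit, was at 8.47, 8.47 and 8.74 in BPH/2J ‘trough’ mice and spread from 8.71 to 9.45 (median 9.28) in ‘peak’ mice, so those groups overlapped. It rose by 0.59 (SE 0.17, adjusted p = 0.0426) in BPH/2J and 0.67 (SE 0.17, adjusted p = 0.0124) in BPN/3J. The BPH/2J call was lost on leaving out any of 9 of the 18 mice singly, which were BPH/2J ‘trough’ mice 1, 2 and 3, BPH/2J ‘peak’ mice 4, 5, 6 and 7, BPN/3J ‘trough’ mouse 3 and BPN/3J ‘peak’ mouse 8, with adjusted p from 0.0517 to 0.179. It was also lost with arrays centred (adjusted p = 0.0612) and with the compared groups only (adjusted p = 0.0701). The core subunits *Uqcrc1* and *Uqcrc2*, the latter the brightest of complex III, had differences from 0.13 to 0.23 and did not pass (adjusted p from 0.259 to 0.575). *Uqcrc2* passed in both strains without the 4 mice (0.34 in each, adjusted p = 0.00375 and 0.00231) and with array weights (0.28 and 0.35, adjusted p = 0.0291 and 0.0013).

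Complex IV, cytochrome c oxidase, has common isoforms and isoforms restricted to some tissues. Of the 10 common isoforms, 4 rose in BPH/2J and 5 in BPN/3J, with medians of 0.23 and 0.24, where 4.63% and 13.9% of all genes rose. Of the 8 isoforms restricted to muscle, testis, lung or other tissues, 1 rose in BPH/2J and 0 in BPN/3J, 1 fell in BPN/3J (14.7% of all genes did), and the medians were 0.11 and 0.11. *Cox4i2*, *Cox6b2*, *Cox7b2*, *Cox8b*, *Cox8c* and *Ndufa4l2* read from 5.11 to 7.04 in single mice, around the array medians of 6.17 to 6.42. The common isoforms read 9.72 or more. At signals as low as those of the former a change may not be seen.

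*Cox7b*, a small common subunit, showed the smallest adjusted p of the 89 genes. It read 10.29, 10.44 and 10.47 in BPH/2J ‘trough’ mice and 11.04 to 11.23 (median 11.12) in ‘peak’ mice. In BPN/3J the values were 10.21, 10.28 and 10.31 against 11.08 to 11.38 (median 11.15). The gap between the times was wider than the spread within any group, and *Cox7b* rose by 0.73 (SE 0.08, adjusted p = 0.000312) and 0.92 (SE 0.08, adjusted p = 2.28e-05). Its second probeset, which is dimmer, rose by 0.59 and 0.57. *Cox7a2*, the common isoform of subunit VIIa, read 9.72, 9.85 and 10.09 against 10.42 to 10.69 (median 10.55) in BPH/2J and 9.78, 9.93 and 10.15 against 10.52 to 10.66 (median 10.59) in BPN/3J. Its times did not overlap, and it rose by 0.68 (SE 0.09, adjusted p = 0.000757) and 0.64 (SE 0.09, adjusted p = 0.000503).

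*Cox7a1*, the heart and skeletal muscle isoform of the same subunit, rose by 0.45 (SE 0.09, adjusted p = 0.00707) in BPH/2J and was higher by 0.24 (SE 0.09, adjusted p = 0.0669) in BPN/3J, and without BPH/2J ‘trough’ mouse 1 the former had an adjusted p of 0.0607. The latter passed with arrays centred (adjusted p = 0.0334), without dim probesets (0.0488) and with array weights (0.00109). *Cox7a2l*, which joins complexes III and IV into supercomplexes, differed by 0.09 (SE 0.19) and 0.26 (SE 0.19) and did not pass. It read 9.87 to 10.15 in the 4 ‘peak’ mice of highest number and 10.36 to 10.90 in the other ‘peak’ mice. Without those 4 mice it passed in BPN/3J (0.43, adjusted p = 0.0119), as it did with array weights (0.42, adjusted p = 0.00588). Of subunit VIa, the common *Cox6a1* was at 11.25, 11.32 and 11.35 against 11.49 to 11.78 (median 11.66) in BPH/2J and at 11.24, 11.30 and 11.32 against 11.58 to 11.74 (median 11.65) in BPN/3J. *Cox6a1* rose without overlap by 0.33 (SE 0.07, adjusted p = 0.0113) and 0.37 (SE 0.07, adjusted p = 0.003), the former with an adjusted p of 0.081 without BPH/2J ‘trough’ mouse 1. The muscle isoform *Cox6a2* differed by 0.45 (SE 0.21) in BPH/2J and 0.10 (SE 0.21) in BPN/3J and did not pass. In BPH/2J it passed without the 4 mice (0.58, adjusted p = 0.00851) and with array weights (0.57, adjusted p = 0.0101). *Cox5a*, a subunit on the matrix side, was at 9.89, 9.97 and 10.02 against 10.35 to 10.51 in BPH/2J and at 9.79, 9.87 and 9.93 against 10.25 to 10.60 in BPN/3J. It rose without overlap by 0.46 (SE 0.08, adjusted p = 0.00241) and 0.53 (SE 0.08, adjusted p = 0.00057).

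Of the other isoform sets of complex IV, 2 genes passed, each in BPN/3J alone by this test, and the strains were not shown to differ. The common *Cox4i1*, a regulatory subunit, differed by 0.23 (SE 0.12) and 0.20 (SE 0.12) and its lung isoform *Cox4i2* by 0.06 and -0.06 (SE 0.09), with adjusted p from 0.226 to 0.714. *Cox4i1* passed in both strains without the 4 mice (0.37 and 0.29, adjusted p = 0.00328 and 0.0068). It also passed in both with array weights (0.32 and 0.26, adjusted p = 0.00753 and 0.00636). *Cox6b1* and its testis isoform *Cox6b2* differed by -0.19 and 0.20 in BPH/2J and by -0.11 and -0.12 in BPN/3J, and neither passed. With array weights *Cox6b2* passed in BPH/2J (0.25, adjusted p = 0.0469). *Cox8a* differed by 0.17 and 0.02 and the muscle isoform *Cox8b* by 0.14 and 0.25, and neither passed. *Cox8c*, the testis isoform, was the 1 gene of the 89 that fell, at 6.29, 6.66 and 6.77 in BPN/3J ‘trough’ mice and 6.01 to 6.31 (median 6.16) in ‘peak’ mice (-0.42, SE 0.14, adjusted p = 0.0381). Its signal lay near the array medians. Its groups overlapped, and the call was lost without BPN/3J ‘trough’ mouse 1 or 3 or BPN/3J ‘peak’ mouse 6, 8 or 10, with adjusted p from 0.056 to 0.194, and with arrays centred (adjusted p = 0.0684). *Ndufa4* rose by 0.19 (SE 0.06, adjusted p = 0.0243) in BPN/3J, though not without its ‘trough’ mouse 1 or 3 (adjusted p = 0.0862 and 0.0769), nor with quantile normalization (0.12, adjusted p = 0.137) or the compared groups only (adjusted p = 0.111). In BPH/2J *Ndufa4* differed by 0.14 (SE 0.06, adjusted p = 0.142), and passed with array weights (0.16, adjusted p = 0.0148) and with a trend and robust prior (adjusted p = 0.0351). Its hypoxia-induced relative *Ndufa4l2* differed by 0.09 and 0.12 (SE 0.10), and *Cox7b2*, the dimmest probeset of complex IV, by 0.07 and 0.15 (SE 0.13).

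**Figure D3:**
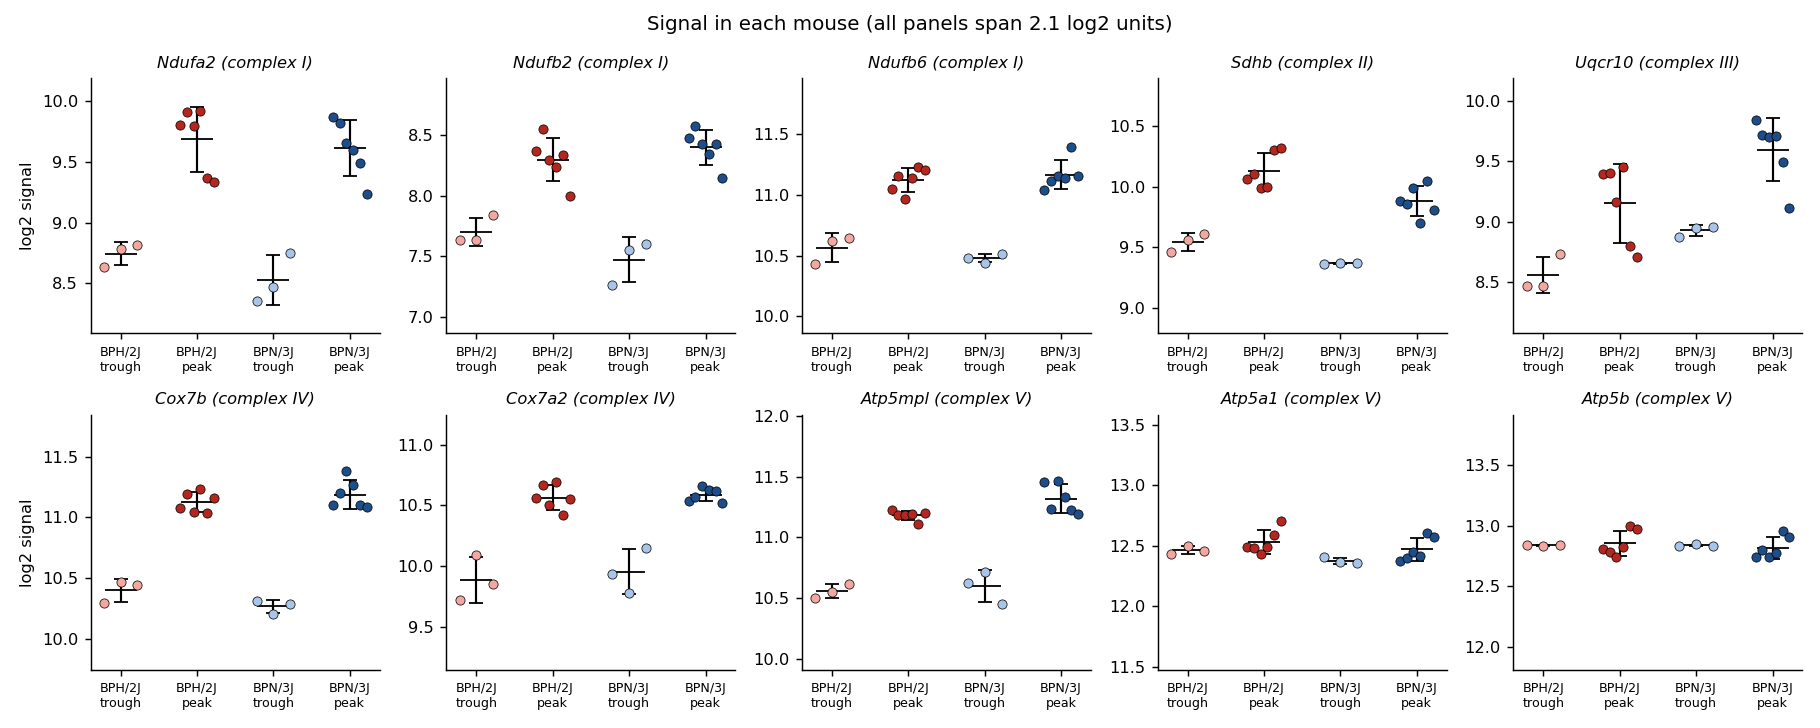
Log2 signal (y axis, each panel spanning the same number of log2 units) of 10 genes in each mouse by group, with 1 point per mouse and bars for the mean ± SD. *Ndufa2*, *Ndufb2*, *Ndufb6*, *Sdhb*, *Cox7b*, *Cox7a2* and *Atp5mpl* show no overlap between the times in either strain, *Uqcr10* overlaps in BPH/2J, and *Atp5a1* and *Atp5b* lie at about the same level at both times.

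Complex V, the ATP synthase, has a catalytic F1 head and a membrane part that carries the proton flow. Its medians were 0.21 in BPH/2J and 0.23 in BPN/3J, and 4 of 17 genes rose in BPH/2J and 6 in BPN/3J, beside 4.63% and 13.9% of all genes. Of the 5 genes of the catalytic F1 head 0 rose in either strain, with 1 at an unadjusted p under 0.05 in each. *Atp5e*, named after its value was seen, had the largest difference of the 5, 0.41 in BPH/2J and 0.58 in BPN/3J. Its times overlapped in BPH/2J and not in BPN/3J. *Atp5a1*, the alpha subunit, was at 12.43, 12.45 and 12.50 in BPH/2J ‘trough’ mice and 12.43 to 12.71 (median 12.49) in ‘peak’ mice, and differed by 0.07 (SE 0.08, adjusted p = 0.648) in BPH/2J and 0.09 (SE 0.08, adjusted p = 0.37) in BPN/3J. *Atp5b*, the catalytic beta subunit and the brightest probeset of the 89 genes, was within 12.83 to 12.85 in all 6 ‘trough’ mice and at 12.74 to 13.00 in the ‘peak’ mice. Its differences were 0.02 and -0.02 (SE 0.07), with 95% intervals from -0.14 to 0.18 and from -0.18 to 0.14.

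A membrane subunit gave the largest difference of complex V. *Atp5mpl*, a small proteolipid, was at 10.50, 10.55 and 10.62 in BPH/2J ‘trough’ mice and 11.11 to 11.23 (median 11.19) in ‘peak’ mice. In BPN/3J it was at 10.45, 10.63 and 10.71 against 11.19 to 11.46 (median 11.29). Neither strain had an overlap, and it rose by 0.63 (SE 0.08, adjusted p = 0.000501) and 0.72 (SE 0.08, adjusted p = 9.69e-05). Of the 3 genes for the c-ring, which make 1 identical mature protein, *Atp5g1* rose by 0.33 (SE 0.08, adjusted p = 0.0231) and 0.37 (SE 0.08, adjusted p = 0.00591), *Atp5g3* differed by 0.19 (SE 0.07, adjusted p = 0.117) and rose by 0.23 (SE 0.07, adjusted p = 0.0363), and *Atp5g2* differed by 0.21 and 0.20 (SE 0.10) without passing. The BPH/2J call of *Atp5g1* was lost without BPH/2J ‘trough’ mouse 1 or 2 or ‘peak’ mouse 5 (adjusted p from 0.0518 to 0.144), and that of *Atp5g3* without BPN/3J ‘trough’ mouse 1, 3 or 4 or ‘peak’ mouse 5, 7 or 8 (adjusted p from 0.0514 to 0.116). With quantile normalization neither call held (0.27 with adjusted p = 0.056, and 0.13 with adjusted p = 0.2). *Atp5g1* also did not pass in BPH/2J with the mean of its probesets (0.21, adjusted p = 0.12), nor *Atp5g3* in BPN/3J with the compared groups only (adjusted p = 0.0983). In BPH/2J *Atp5g3* passed without the 4 mice (0.24, adjusted p = 0.0327) and with array weights (0.23, adjusted p = 0.00742). *Atp5k*, the dimmest of complex V, differed by -0.15 and 0.08 (SE 0.23). Without the 4 mice it passed in BPN/3J (0.36, adjusted p = 0.012).

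The value of *Atp5l*, a membrane subunit, depended on the probeset. It has 5 probesets, whose differences ran from 0.07 to 0.80 in BPH/2J and from -0.15 upwards in BPN/3J, where the highest was the 2.64-fold rise of the probeset that is the fourth in brightness. At the brightest probeset it was 0.25 (SE 0.17, adjusted p = 0.419) and 0.34 (SE 0.17, adjusted p = 0.152). With the mean of its probesets it passed in both strains (0.44 and 0.64, adjusted p = 0.0355 and 0.0021). The brightest probeset passed in both strains without the 4 mice (adjusted p = 0.0438 and 0.00691) and with array weights (adjusted p = 0.0268 and 0.0133). Of the 89 genes, 17 have several probesets, 41 in all, and for 12 of the 17 every probeset was above 0 in both strains. Subunit genes of this kind have processed copies elsewhere in the genome that probes can share, so a probeset may not read its named gene alone.

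The Spearman correlation between the mean signal and the time difference over the 89 genes was -0.17 in both strains, against 0.09 in BPH/2J and 0.36 in BPN/3J over all genes. This is a description over genes measured on the same 18 arrays.

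Few of these genes passed between the strains. At ‘peak’ BP the median difference (BPH/2J minus BPN/3J) was 0.03, 0 genes were higher and 2 were lower in BPH/2J at an adjusted p under 0.05, where 0.697% of all genes were higher and 0.687% lower (0.866% and 0.817% of those from the 40th percentile of signal). An unadjusted p under 0.05 was reached by 8 and 4, where 4.68% and 4.15% of all genes reached it. *Ndufaf1*, a factor for the membrane arm of complex I, was at 8.54 to 8.87 (median 8.71) in BPH/2J and 8.94 to 9.22 (median 9.10) in BPN/3J ‘peak’ mice, with no overlap (-0.39, SE 0.07, adjusted p = 0.00849). It kept an adjusted p under 0.05 whichever mouse was left out, but not with arrays centred (adjusted p = 0.115). *Ndufa3*, a membrane arm subunit, was at 9.46 to 9.90 (median 9.64) and 9.87 to 10.16 (median 9.94), with 1 BPH/2J mouse inside the BPN/3J range (-0.33, SE 0.08, adjusted p = 0.0457). That call held only when BPN/3J ‘trough’ mouse 1 or BPH/2J ‘peak’ mouse 9 was the mouse left out, and was lost for the other 16 with adjusted p from 0.0519 to 0.117. It was also lost with quantile normalization (adjusted p = 0.0578), arrays centred (adjusted p = 0.104), the compared groups only (adjusted p = 0.127) and without the 4 mice (adjusted p = 0.053). At ‘trough’ BP the same 2 genes differed by -0.19 (SE 0.10) and -0.35 (SE 0.11), the median over the 89 genes was 0.06, and 0 genes passed in limma, where 0.381% of all genes were higher and 0.186% lower, with 6 higher and 2 lower at an unadjusted p under 0.05 (6.45% and 5.36% of all genes).

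*Uqcr10* and complex II had differences between the strains at ‘peak’ BP that did not pass. *Uqcr10* was lower in BPH/2J by 0.44 on the log2 scale (SE 0.14, adjusted p = 0.204). All 4 complex II genes were above 0, with a median of 0.18, *Sdhb* at 0.25 (SE 0.08, adjusted p = 0.172) and *Sdhc*, the other membrane anchor, at 0.38 (SE 0.11, adjusted p = 0.142), the latter named after its value was seen. Over complex II the mean deviation was 0.19 ± 0.05 (SD, n = 6) in BPH/2J and 0.01 ± 0.11 (SD, n = 6) in BPN/3J ‘peak’ mice, with no overlap between the groups, a value described without a test.

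For *d* 0 of the 89 genes passed in limma and 0 had an unadjusted p under 0.05, where 4.02% of all genes were above and 4.21% below 0 at that level, and 0 genes of the whole array passed. The values ran from -0.41 for *Ndufb3* (SE 0.27) to 0.35 for *Cox6a2* (SE 0.30), with a median of -0.03. At the brightest probesets an *aFD* of 1.5 or more in size was reached by 0 of the 89 genes and by 1.2% of all genes. The paper reports that genes of the mitochondrial proton-transporting ATP synthase complex were enriched in its own *aFD* list at ‘peak’ BP. That enrichment was not tested here. All 89 of the 95% intervals held 0. For 66 genes the interval lay within an *aFD* of 1.5 either way, which is 0.58 on the log2 scale, and for 23 it reached beyond. The smallest unadjusted p was that of *Ndufb2* (*d* = -0.33, SE 0.16, adjusted p = 0.605 in limma). The time difference was the larger in BPN/3J for 56 genes and in BPH/2J for 33, and no test was made of these counts. Over the 5 probesets of *Atp5l*, *d* ran from -0.61 to 0.23, and the lowest had an unadjusted p of 0.0452 in limma (adjusted p = 0.596). That lowest value, which is not at the brightest probeset, is beyond an *aFD* of 1.5 in size.

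**Figure D4:**
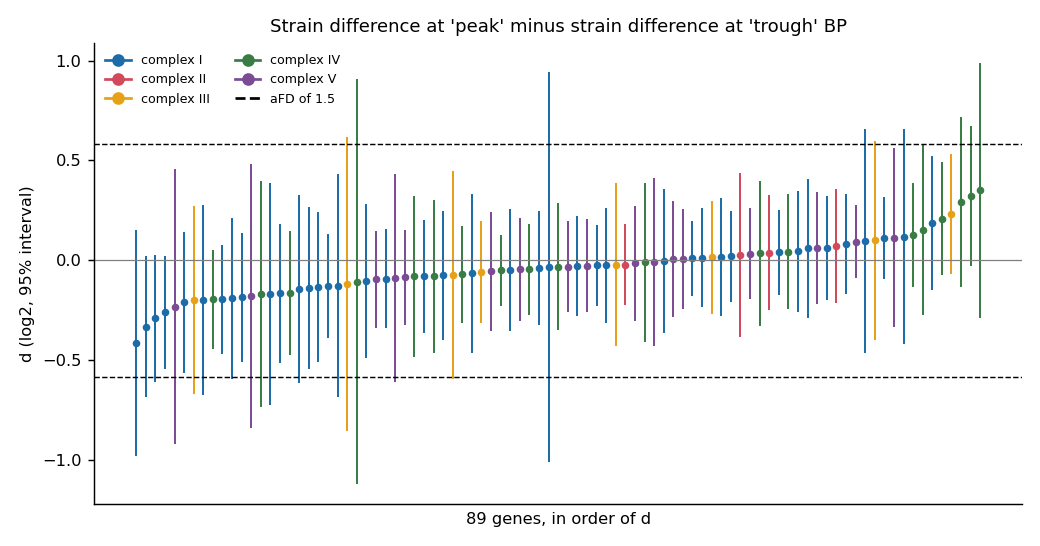
Values of *d* (y axis, log2) with 95% intervals for the 89 genes in order of size, coloured by complex, with dashed lines at an *aFD* of 1.5 in either direction. Every interval holds 0, and 66 of the 89 lie within the dashed lines.

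Genes that work with the complexes were taken from lists outside the symbol rule. Of the subunits encoded in mitochondrial DNA, 2 were measured and both were above 0, ND3 of complex I by 0.14 (SE 0.07, adjusted p = 0.244) and COX2 of complex IV by 0.20 (SE 0.08, adjusted p = 0.108) in BPH/2J. In BPN/3J both rose, by 0.22 (SE 0.07, adjusted p = 0.0262) and 0.27 (SE 0.08, adjusted p = 0.0198). Of 37 other assembly factors 10 rose in BPH/2J (27%, where 4.63% of all genes rose) and 15 in BPN/3J (40.5%, where 13.9% did). None fell, and the medians were 0.21 and 0.24.

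Assembly factors gave some of the largest values. *Cox17*, the copper chaperone of complex IV, was at 8.04, 8.18 and 8.21 against 8.67 to 8.92 (median 8.82) in BPH/2J and 7.73, 7.96 and 8.12 against 8.77 to 9.01 (median 8.88) in BPN/3J. *Cox17* rose by 0.66 (SE 0.09, adjusted p = 0.000757) and 0.94 (SE 0.09, adjusted p = 6.25e-05) without overlap. *Tmem126b*, of the complex I intermediate assembly complex, rose by 0.71 (SE 0.10) and 0.97 (SE 0.10), and *Uqcc3*, a complex III assembly factor, by 0.75 (SE 0.10) and 0.80 (SE 0.10), with adjusted p of 0.000702 or less. At ‘peak’ BP 2 factors were lower in BPH/2J than in BPN/3J, *Lyrm7* of complex III by 0.76 on the log2 scale (adjusted p = 0.000393) and *Uqcc1* of complex III by 0.45 (adjusted p = 0.0247). Among all genes 0.687% were lower in that comparison.

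Upstream of the chain, 5 of 17 genes of the tricarboxylic acid cycle and pyruvate dehydrogenase rose in BPH/2J and 9 in BPN/3J, with medians of 0.17 and 0.23. The shares of all genes that rose were 4.63% and 13.9%. *Idh3b*, a subunit of isocitrate dehydrogenase, rose by 0.41 (SE 0.07, adjusted p = 0.00285) and 0.43 (SE 0.07, adjusted p = 0.0012), and *Pdhb*, of pyruvate dehydrogenase, by 0.35 (SE 0.09, adjusted p = 0.0207) and 0.62 (SE 0.09, adjusted p = 0.000398). The electron carrier *Cycs*, cytochrome c, rose by 0.37 (SE 0.11, adjusted p = 0.0394) and 0.31 (SE 0.11, adjusted p = 0.039). Of 13 regulators of mitochondrial biogenesis 0 rose and 2 fell in BPH/2J, and 4 rose and 1 fell in BPN/3J, with medians of -0.05 and 0.03, beside the 4.63% and 5.61% of all genes that rose and fell in BPH/2J and the 13.9% and 14.7% in BPN/3J. *Polrmt*, the mitochondrial RNA polymerase, fell by 0.34 (adjusted p = 0.0262) and 0.39 (adjusted p = 0.00662), *Esrrg*, a nuclear receptor, fell by 0.56 in BPH/2J (adjusted p = 0.0247), and the mitochondrial transcription factors *Tfam*, *Tfb1m* and *Tfb2m* rose by 0.58, 0.57 and 0.59 in BPN/3J (adjusted p from 0.00198 to 0.0208). Of 12 genes induced by hypoxia 2 rose and 1 fell in BPH/2J and 3 rose and 2 fell in BPN/3J, with medians of -0.09 and -0.05, beside the same shares of all genes.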

How the data were processed

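Each of 18 mice gave RNA for 1 Affymetrix Mouse Gene 1.0 ST array. The log2 values deposited by the authors had been normalized with RMA, whose version is not given in the sources used here. The arrays hold 34760 probesets, all used, with 0 values missing. The platform annotation gives 21640 of them 1 symbol, 1321 several and 11799 none. Precision is limited by the number of arrays.

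One limma model (version 3.58.1, R 4.3.3) of the 4 groups was fitted over all probesets, with 14 residual and 2.94 prior degrees of freedom, with Benjamini-Hochberg adjustment over all of them. Contrasts were ‘peak’ against ‘trough’ BP in each strain, the strains at each time, and *d*. A gene rose or fell at an adjusted p under 0.05. Figures were drawn with matplotlib 3.10.9 in Python 3.11.15. Members, lists and tests were chosen with earlier results of these data known.

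Named were up to 8 genes per direction and comparison that passed, catalytic or central subunits, isoform sets, and the brightest and dimmest probeset of each complex. From other lists up to 4 genes with the smallest p were named. In simulated data with 200 of 34760 probesets changed, 0% were recovered at a log2 difference of 0.3, 29% at 0.5 and 83.5% at 1 for the time in BPH/2J, and 0%, 2% and 58% for *d*. The simulated noise was independent between probesets, and far more probesets passed between the times in the data. Some genes there passed at differences below 0.3, so these recovery rates do not carry over to the time comparisons. Alternatives were quantile normalization, centring, leaving out dim probesets, array weights, a robust prior with a trend, models of the compared groups only, a replicate block, other probeset choices, and leaving out 4 or 1 mice.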

Additional observations from a re-analysis of the deposited data

Results flagged for a closer look

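In 9 of 100 groups of 6 mice looked at, 1 mouse lay far from the rest by the share of the group's range that its gap takes up, and chance flags about 1 in 20 groups. BPN/3J ‘peak’ mouse 11 had the lowest mean deviation over all 89 genes, at -0.05 against 0.10 for the next mouse, a gap of 0.769 of the range. It was also the lowest for complex I (gap 0.704 of the range), complex III (0.733) and complex V (0.648). These 4 values come from overlapping genes on 1 array.

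BPN/3J ‘peak’ mouse 10 was the highest for *Cox7a1*, at 7.36 (0.669 of the range), *Ndufb6*, at 11.40 (0.677), and *Ndufv1*, at 10.87 (0.698). BPH/2J ‘peak’ mouse 8 was the lowest for *Atp5g3*, at 11.69 (0.659). BPH/2J ‘peak’ mouse 6 was the highest for *Cox8b*, at 7.04 against 6.01 for the next mouse (0.688).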

How the results depend on the processing

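At ‘peak’ BP 2 genes differed between the strains. The count was 1 with quantile normalization and with the compared groups only, 0 with arrays centred on their median, 4 without the 4 ‘peak’ mice of highest number, and 1 to 2 without 1 mouse. At ‘trough’ BP, where 0 passed, the count was 23 with array weights (15 higher and 8 lower, where 11.8% and 13.4% of all genes were) and 2 without the 4 mice, and 0 without any 1 mouse. For the time in BPH/2J 59 genes passed with array weights, 55 without the 4 mice and 13 to 36 without 1 mouse. For the time in BPN/3J 64 passed with array weights, 61 without the 4 mice and 30 to 48 without 1 mouse. The weights gave BPN/3J ‘trough’ mouse 3 a weight of 9.44 and the others 0.299 to 2.53, and under them 15.3% and 26.3% of all genes rose in the strains. For *d* 1 passed, as lower, with array weights, where 1.5% of all genes were higher and 1.23% lower, and 0 without any 1 mouse. The median over the 89 genes was 0.25 with quantile normalization for the time in BPN/3J, and with centring 0.34 in BPH/2J, 0.42 in BPN/3J and 0.13 between the strains at ‘trough’ BP. Without 1 mouse it ran from 0.25 to 0.31 in BPH/2J, from 0.27 to 0.35 in BPN/3J, from -0.0014 to 0.04 and from 0.04 to 0.08 between the strains at ‘peak’ and ‘trough’ BP, and from -0.05 to -0.02 for *d*. Whether mouse numbers pair the strains was not settled. Residual correlations of arrays that share a number ran from -0.30 to 0.19, and they were not compared with those of other pairs. With the number as a replicate block, over 12 arrays, 0 genes passed between the strains at ‘peak’ BP (median -0.0030), 0 at ‘trough’ BP and 0 for *d*. The time groups share no number, so no block was made there.

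Signs turned only for genes whose difference had not passed. With quantile normalization *Atp5a1* was at -0.069 and *Atp5b* at -0.040 in BPH/2J, and in BPN/3J *Ndufv1* was at -0.025, *Atp5a1* at -0.017, *Cox4i2* at 0.019, *Cox6a2* at -0.013, *Cox8a* at -0.11 and *Atp5k* at -0.024. With centring *Atp5b* was at 0.079 and *Cox4i2* at 0.034 in BPN/3J. With array weights *Atp5b* was at -0.016 in BPH/2J, and *Uqcrc1* at -0.000916 and *Cox8a* at -0.12 in BPN/3J. Without the 4 mice *Atp5b* was at -0.047 and *Atp5k* at 0.048 in BPH/2J, and *Uqcrc1* at -0.031, *Cox6b1* at 0.021 and *Cox8a* at -0.12 in BPN/3J. Without 1 mouse the BPH/2J ranges that crossed 0 were -0.27 to 0.074 for *Cox8c*, -0.031 to 0.15 for *Cox7b2*, -0.023 to 0.14 for *Cox4i2*, -0.080 to 0.40 for *Cox8b*, -0.019 to 0.19 for *Cox7a2l* and -0.011 to 0.040 for *Atp5b*. Those in BPN/3J were -0.024 to 0.26 for *Cox6a2*, -0.046 to 0.077 for *Cox8a* and -0.0031 to 0.24 for *Atp5k*. Of 34 calls of named genes 23 held whichever mouse was left out. Of 73 comparisons of named genes that did not pass, 21 passed under another setting, 19 of them with array weights, 16 without the 4 mice, 4 with centring, 4 with the mean of probesets, 3 with a trend and robust prior and 3 without dim probesets. Calls of named genes lost numbered 5 with quantile normalization, 5 with the compared groups only, 4 with centring, 2 with the replicate block, 1 with the mean of probesets and 1 without the 4 mice. The cause of these changes was not tested.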
